A study of Rattus norvegicus with 12 samples.

Results

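Semaphorins, ephrins, Slits, netrins and their receptors were measured here in colony derived and adherent rat fibroblasts. The members were taken by symbol, as every probe set whose single gene symbol begins with Sema3 to Sema7, Plxn, Epha, Ephb, Efna, Efnb, Ntn or Unc5 or is an Nrp, Slit or Robo gene. They were 96 of 31042 probe sets and 57 of 14217 genes, with 27 ligand genes (45 probe sets) and 28 receptor genes (49 probe sets). The other 2 genes, Unc50 and Unc5cl, matched by name only, since they are no netrin receptors. Total RNA was hybridised to Affymetrix rat genome arrays, short oligonucleotide arrays on which a gene can have several probe sets, and 6 arrays were used. Colony cells came from cells of the F111 line that had been held in suspension (NA16) and then kept in soft agar for 7 days. Cells of the colonies were taken out of the agar in bulk, and those that attached to a dish after a brief time were used. A16 cells were F111 cells, a line of fibroblasts from the Fischer rat, that had been plated on plastic for 16 h. The same serum medium was used for both groups, and soft agar growth, suspension and time on plastic all differed between them. The paper also reports that their karyotypes differed, with a chromosome translocation seen in few adherent cells and in all colony cells. These differences in culture and karyotype cannot be told apart here. Each group had 3 arrays of n = 2 cultures. For biological replicate 2 of Colony, 1 label field names tumour formation and the other fields name colony, and it was kept as Colony.

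Guidance molecules steer growing axons, migrating cells and vessels by attraction and repulsion at the cell surface. Semaphorins act through plexins, and the secreted class 3 semaphorins mostly need a neuropilin as the ligand binding co-receptor. Ephrins are membrane bound ligands of the Eph receptor tyrosine kinases, Slits bind Robo receptors, and netrins bind Dcc, neogenin and the Unc5 receptors. In fibroblasts and other adherent cells these receptors act on the actin cytoskeleton and integrin adhesion.

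The largest differences among the guidance genes were falls in Colony cells. Sema3d, Sema3e, Nrp1, Slit2, Unc5c and Ephb4 were lower by 2.52 to 8.99 fold at the brightest probe set of each gene, while Nrp2, Sema6a, Epha7 and Sema4b were higher by 2.04 to 2.73 fold. A probe set was called when the adjusted p from limma was under 0.05 and the fold change was over 2. By this rule 4 member probe sets rose and 13 fell in Colony cells, 17 of 96 (17.7%), and 79 did not pass. Over all probe sets 4.0% were called higher and 5.81% lower, 9.81% in either direction. With the brightest probe set standing for its gene, 4 of 57 genes rose and 6 fell, against a background of 4.36% higher and 4.75% lower over all genes. Counting any called probe set, 13 genes were called, 3 higher, 9 lower and 1, Nrp2, in both directions. Each array measures RNA of a whole culture, so fewer cells with a transcript and less of it per cell cannot be told apart.

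**Figure D1:**
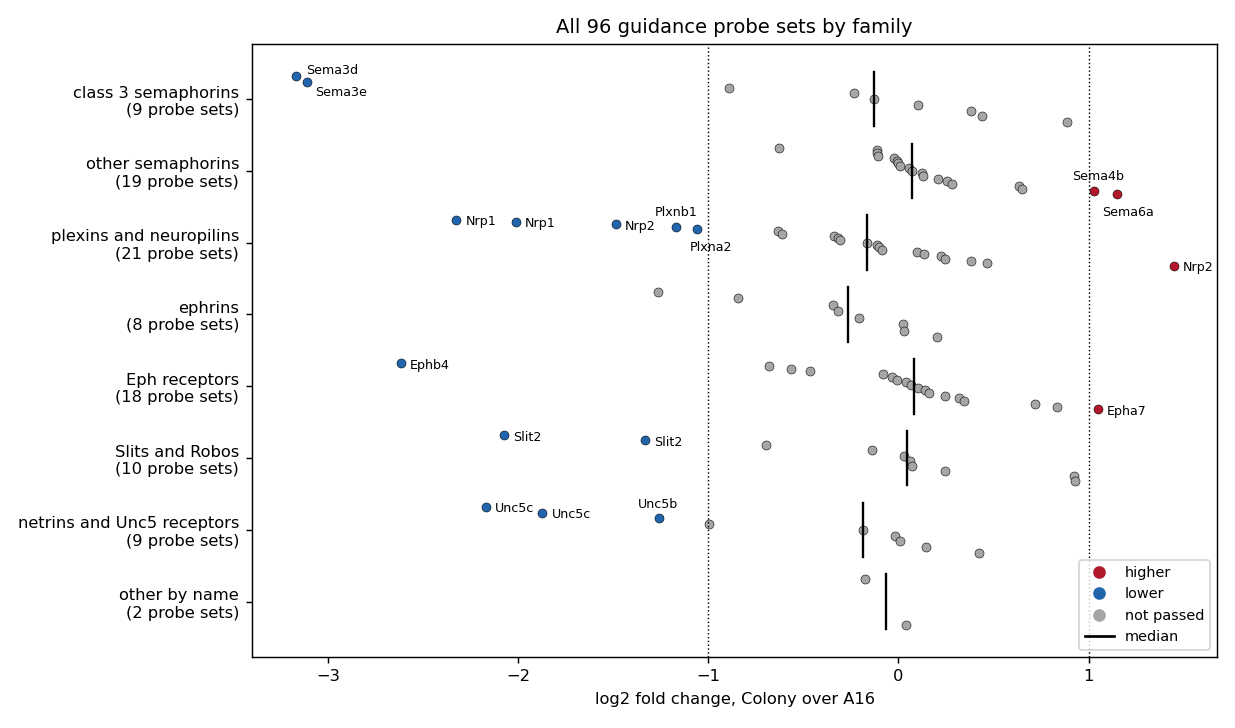
Log2 fold change of Colony over A16 (x axis) for each of the 96 guidance probe sets, by family, where colours give the limma call, dotted lines mark a fold of 2 and black bars the median of each family. Most points lie between the dotted lines, and the 5 points below -2.1 are Sema3d, Sema3e, Ephb4 and single probe sets of Nrp1 and Unc5c.

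All 17 called probe sets had groups that did not overlap. The calls were made on these same arrays, so the lack of overlap adds no support to them. In 49 of 96 probe sets the 3 Colony arrays and the 3 A16 arrays did not overlap, 20 with Colony above and 29 with Colony below, against 25.4% and 20.5% of all probe sets. The share of members was thus below that of all probe sets for Colony above, and over it for Colony below. Many members were dim: 64 of 96 probe sets had a mean level below the median of all probe sets, and the tables hold no detection calls. Of the 32 members at or above that median 10 were called, where 6.24% of all such probe sets were called higher and 9.32% lower, 15.6% in either direction.

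Class 3 semaphorins, the secreted group, gave the lowest values. Of 7 genes 2 fell and none rose, against 4.75% lower and 4.36% higher over all genes. Sema3d had RMA intensities of 25.8, 31.1 and 32.3 in Colony arrays, against 266, 253 and 285 in A16 arrays. The Colony values sat close together and far under every A16 value. Sema3d was thus 8.99 fold lower in Colony cells (log2 fold change -3.17, SE 0.14, 95% interval -3.50 to -2.84, limma adjusted p = 3.22e-05). Its Colony level was dim, at percentile 14.3 of all probe sets in Colony arrays. The floor of the signal may therefore limit the size of this fall. Sema3e, which can bind plexin-D1 without a neuropilin, had 53.4, 58.5 and 67.0 in Colony arrays, against 561, 671 and 456 in A16 arrays. Its groups did not overlap either, and it was 8.65 fold lower (log2 fold change -3.11, SE 0.19, limma adjusted p = 9.7e-05).

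Sema3c had the opposite sign. Its intensities were 5364, 5441 and 4967 in Colony arrays, against 2864, 3013 and 2674 in A16 arrays. All Colony arrays lay above all A16 arrays. With a log2 fold change of 0.89 (SE 0.13) and an adjusted p of 0.0045 it passed the p threshold in limma and stayed under a fold of 2. Sema3f, a ligand of neuropilin-2, had 634, 468 and 425 in Colony arrays, against 603, 680 and 1242 in A16 arrays, and these ranges overlapped. It did not pass (log2 fold change -0.89, SE 0.30, limma adjusted p = 0.084), although without A16 replicate 1 its log2 fold change was -1.37 and passed (adjusted p = 0.0014). Sema3b had a log2 fold change of -0.13 and did not pass. Sema3g (0.38) and Sema3a (0.44), the first known repellent of the group, did not pass either.

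Sema3c, Sema3e, Sema3a and Sema3d lie in this order on chromosome 4 of the rat assembly GRCr8. There are 4 coding genes between Sema3c and Sema3e, 12 between Sema3e and Sema3a and 0 between Sema3a and Sema3d. Sema3a and Sema3d are thus neighbours, with log2 fold changes of 0.44 (limma adjusted p = 0.17) and -3.17. Of the 4 genes, Sema3d and Sema3e fell, and Sema3c had the opposite sign under a fold of 2. The promoters of Sema3c, Sema3e and Sema3d, from 250 bases before to 50 after the start in RefSeq on GRCr8, are therefore printed. That of Nrp1 is printed because this co-receptor fell at both of its probe sets. Capitals mark matches, on either strand, to the letters GGGCGG (the GC box), to CCAAT (the CCAAT box), to TATAAA (the TATA box), to TGANTCA (the AP-1 site) and to ACGTG (the core of the hypoxia response element, which also lies within the E box motif CACGTG).
Sema3c, chr4:18699578-18699877, minus strand: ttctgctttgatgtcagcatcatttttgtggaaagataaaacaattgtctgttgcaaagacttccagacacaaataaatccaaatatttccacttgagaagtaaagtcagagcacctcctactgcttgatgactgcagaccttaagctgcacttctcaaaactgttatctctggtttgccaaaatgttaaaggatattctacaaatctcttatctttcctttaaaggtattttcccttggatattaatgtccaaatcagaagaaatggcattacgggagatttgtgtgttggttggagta
Sema3e, chr4:21510325-21510624, minus strand: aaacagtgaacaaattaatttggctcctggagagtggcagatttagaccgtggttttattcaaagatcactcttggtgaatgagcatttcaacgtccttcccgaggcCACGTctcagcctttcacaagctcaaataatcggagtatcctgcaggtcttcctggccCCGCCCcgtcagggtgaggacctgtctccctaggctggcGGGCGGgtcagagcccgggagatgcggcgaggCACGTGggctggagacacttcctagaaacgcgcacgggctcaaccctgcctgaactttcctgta
Sema3d, chr4:23460922-23461221, minus strand: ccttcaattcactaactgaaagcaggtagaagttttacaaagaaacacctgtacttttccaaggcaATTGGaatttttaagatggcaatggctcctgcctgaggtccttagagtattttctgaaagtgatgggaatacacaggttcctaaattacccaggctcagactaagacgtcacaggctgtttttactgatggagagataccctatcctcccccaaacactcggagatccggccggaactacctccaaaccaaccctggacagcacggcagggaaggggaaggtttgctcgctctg
Nrp1, chr19:73256307-73256606, plus strand: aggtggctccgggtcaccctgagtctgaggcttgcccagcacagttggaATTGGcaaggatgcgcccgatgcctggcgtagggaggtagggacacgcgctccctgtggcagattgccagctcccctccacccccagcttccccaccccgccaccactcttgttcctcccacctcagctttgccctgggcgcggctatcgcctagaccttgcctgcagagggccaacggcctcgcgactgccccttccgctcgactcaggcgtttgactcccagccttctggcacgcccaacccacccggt

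The Sema3e window held 2 GC boxes and 3 matches to ACGTG, of which 2 are the overlapping matches of 1 CACGTG on the opposite strands. The windows of Sema3d and Nrp1 held 1 CCAAT box each, and none of these letters was in the window of Sema3c. A promoter was in the table for 43 of 57 member genes, and Sema3a, Unc5c and Slit2 had none there. GC boxes were in 26 of the 43 (60.5%), against 33.1% of all 33469 promoters of the same length. CCAAT was in 16 (37.2%) against 37.5%, ACGTG in 10 (23.3%) against 19.3%, TGANTCA in 1 (2.33%) against 7.33% and TATAAA in 0 against 14.2%. Member genes were counted by gene, and all promoters by window with no filter for genes on the array, so these shares are not like for like. These are matches of letters, and no binding was measured.

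Of the 10 membrane bound semaphorin genes of classes 4 to 6, 2 rose, none fell and 8 did not pass. Over all genes 4.36% were called higher and 4.75% lower. Sema6a, a transmembrane ligand of plexin-A2 and plexin-A4, had 357, 394 and 358 in Colony arrays, against 139, 155 and 186 in A16 arrays at probe set 1382868_at. The groups were apart, with a log2 fold change of 1.15 (SE 0.16, limma adjusted p = 0.0029). Sema4b, a transmembrane class 4 semaphorin, had 497, 479 and 361 in Colony arrays, against 164, 223 and 222 in A16 arrays. The lowest Colony array was still above the highest A16 array (log2 fold change 1.03, SE 0.18, limma adjusted p = 0.0080).

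Both rises were close to the fold threshold. Without A16 replicate 1 the log2 fold change was 0.98 for Sema6a and 0.92 for Sema4b, and without Colony replicate 1 it was 0.81 for Sema4b, each under a fold of 2. The 4 other probe sets of Sema6a had log2 fold changes of 0.64, 0.65, 0.13 and -0.11 and none was called. The mean of all 5 was 0.49. Sema6b, the brightest member of the family without a call, had 120, 121 and 125 in Colony arrays, against 135, 105 and 107 in A16 arrays, with overlap (log2 fold change 0.13). Sema6c (0.070) and Sema4a (-0.63) did not pass. The remaining genes, Sema4d, the ligand of plexin-B1, Sema4f, Sema4g, Sema5a and Sema6d, lay between -0.11 and 0.28 at their brightest probe sets.

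The neuropilins, the ligand binding co-receptors of class 3 semaphorins and of VEGF, differed from each other. Nrp1, which binds Sema3a and VEGF-A, fell at both of its probe sets. At 1370570_at it had 63.1, 56.1 and 52.2 in Colony arrays, against 244, 243 and 207 in A16 arrays (log2 fold change -2.01, SE 0.15, limma adjusted p = 0.00024). At 1373577_at it had 48.6, 39.5 and 36.7 in Colony arrays, against 192, 203 and 204 in A16 arrays. Neither probe set had overlapping groups, and the second gave a log2 fold change of -2.32 (limma adjusted p = 0.00011).

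Nrp2, which binds Sema3f and VEGF-C, was called in opposite directions by its 2 probe sets. At 1382995_at it had 3030, 3136 and 2402 in Colony arrays, against 880, 987 and 1068 in A16 arrays, a 2.73 fold rise (log2 fold change 1.45, SE 0.17, limma adjusted p = 0.0015). At 1369824_at it had 70.8, 54.8 and 53.7 in Colony arrays, against 141, 107 and 214 in A16 arrays, a 2.80 fold fall (log2 fold change -1.49, SE 0.26, limma adjusted p = 0.0076). The groups were apart at both probe sets. The mean of the 2 was -0.020, so the direction of Nrp2 depends on the probe set. In PLIER, the other deposited summary of the same arrays, the rise had a log2 fold change of 1.57 and passed, and the fall one of -1.12 and did not pass (adjusted p = 0.074). Which part of the Nrp2 transcript each probe set reads was not analysed here.

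**Figure D2:**
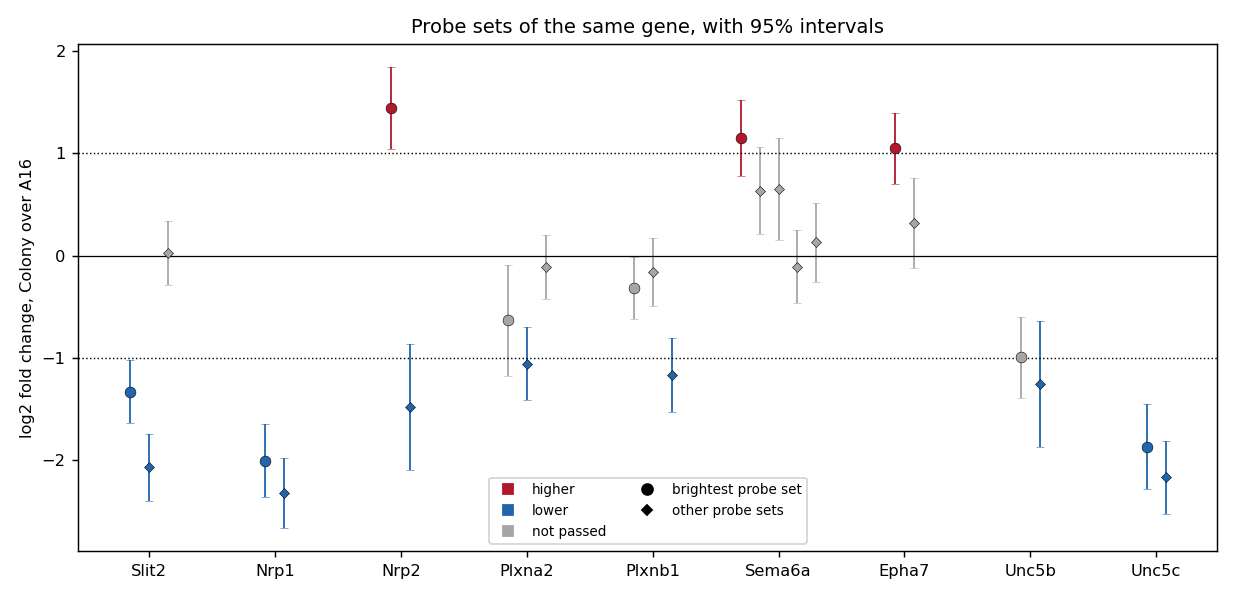
Log2 fold change of Colony over A16 (y axis) with 95% intervals from limma for every probe set of the 9 member genes that have several probe sets and a call, where circles are the brightest probe set of the gene and diamonds the others. Nrp2 has intervals wholly above and wholly below 0, and Nrp1 and Unc5c have all theirs below -1.

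Plexins, the signalling receptors of semaphorins, had few calls, and none at the brightest probe set of any of the 8 plexin genes. Plxnb2, a receptor of class 4 semaphorins, had 2337, 1852 and 1906 in Colony arrays, against 2449, 2555 and 2432 in A16 arrays. The groups were apart by little, with a log2 fold change of -0.31 (SE 0.13, limma adjusted p = 0.15). Plxna1 (-0.34) and Plxna3 (0.13) did not pass. Plxnd1, the receptor of Sema3e, had 109, 121 and 91.6 in Colony arrays, against 152, 179 and 149 in A16 arrays. It was lower with a limma adjusted p of 0.034 and a log2 fold change of -0.61, under a fold of 2.

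Plxnb1, the receptor of Sema4d, and Plxna2, a receptor of Sema6a, fell at 1 dimmer probe set each. Plxnb1 had 49.9, 49.2 and 39.9 in Colony arrays, against 95.04, 106 and 99.3 in A16 arrays at 1374444_at (log2 fold change -1.17, limma adjusted p = 0.0024). At its brightest probe set the log2 fold change was -0.32 (adjusted p = 0.14). Plxna2 had 40.2, 51.6 and 37.0 in Colony arrays, against 91.3, 82.4 and 84.3 in A16 arrays at 1390274_at (log2 fold change -1.06, limma adjusted p = 0.0034). Its brightest probe set gave -0.63 and did not pass (adjusted p = 0.098). Without Colony replicate 2, the array with conflicting labels, the value of 1390274_at was -0.91, under a fold of 2.

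**Figure D3:**
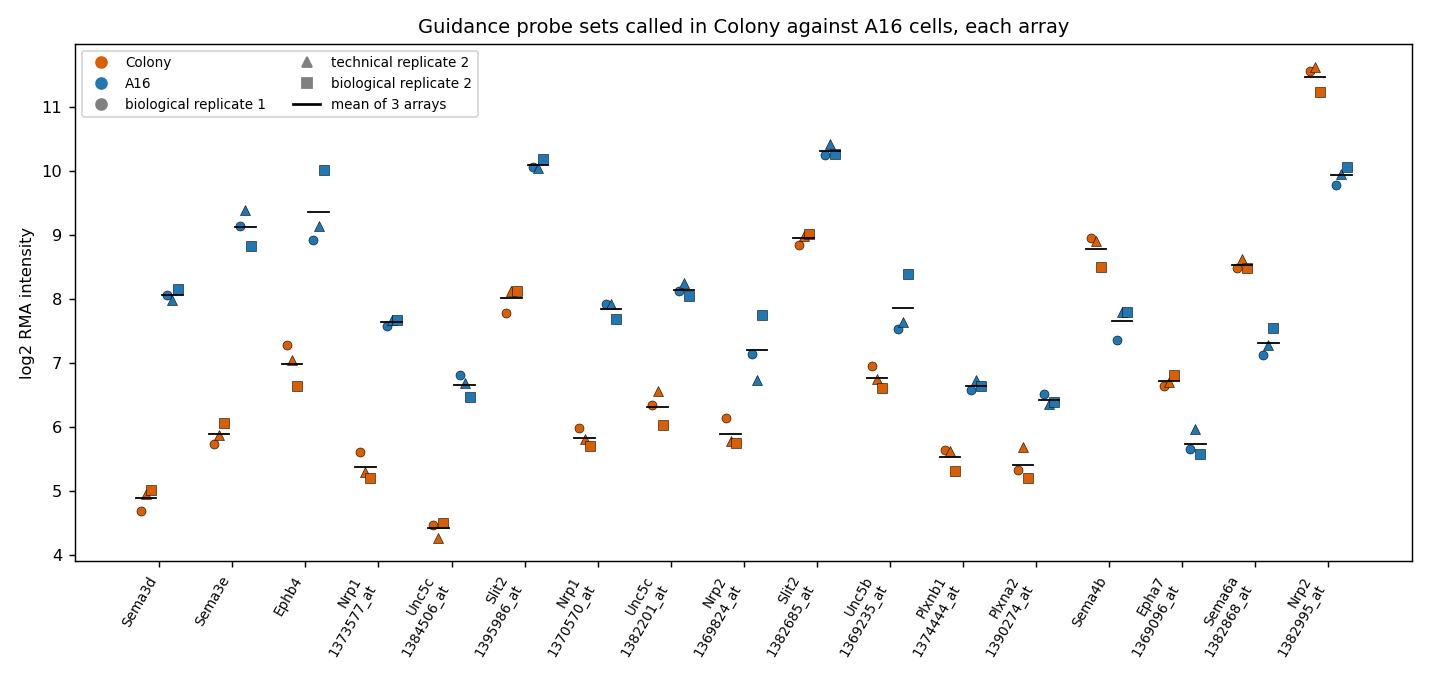
Log2 RMA intensity (y axis) of each array for the 17 called guidance probe sets, with Colony left of A16, a marker shape for each array and a bar for the mean of the 3 arrays of a group. In no probe set shown do Colony and A16 arrays overlap, and the A16 arrays spread most for Ephb4, Unc5b and Nrp2 1369824_at, where biological replicate 2 is the highest.

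Ephrins, the ligands of Eph receptors, had no call in 5 genes. Efna1 had 584, 638 and 744 in Colony arrays, against 706, 727 and 607 in A16 arrays at its brightest probe set, with overlap and a log2 fold change of 0.032. At its other probe set, 1398273_at, it had 297, 334 and 447 in Colony arrays, against 639, 712 and 674 in A16 arrays. Here the groups were apart and the log2 fold change was -0.85 (SE 0.19, limma adjusted p = 0.018), under a fold of 2, so the probe sets of Efna1 disagreed. Efna5 (-0.35) and Efna4 (0.023) did not pass. A second probe set of Efna5, 1369594_at, had a log2 fold change of -1.26 that did not pass (adjusted p = 0.073), with 155 in the A16 array of biological replicate 2, against 60.2 and 54.1 in the other A16 arrays.

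Among 12 Eph receptor genes 1 fell and 1 rose, against 4.75% lower and 4.36% higher over all genes. Ephb4, the receptor of ephrin-B2 and known for the identity of veins, had 155, 132 and 100 in Colony arrays, against 486, 562 and 1031 in A16 arrays. All Colony arrays were below all A16 arrays, and biological replicate 2 was the highest A16 array and the lowest Colony array. Ephb4 was 6.14 fold lower in Colony cells (log2 fold change -2.62, SE 0.33, 95% interval -3.39 to -1.84, limma adjusted p = 0.0020). Epha7, a receptor of A type ephrins, had 100, 104 and 113 in Colony arrays, against 50.5, 62.9 and 47.6 in A16 arrays at 1369096_at. The groups were apart (log2 fold change 1.05, SE 0.15, limma adjusted p = 0.0033).

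The rise of Epha7 was close to the fold threshold as well. Without A16 replicate 2 its log2 fold change was 0.93, without Colony replicate 2 it was 0.98, and its second probe set, 1388061_a_at, gave 0.32 and did not pass. Epha2, which many adherent cells use to sense ephrin-A1, had 1197, 1015 and 666 in Colony arrays, against 1111, 1347 and 1314 in A16 arrays. The lowest value was that of Colony biological replicate 2, the groups overlapped and the log2 fold change of -0.57 did not pass (limma adjusted p = 0.14). Ephb3 (-0.46) and Epha10 (0.35) did not pass. Epha5 was lower with an adjusted p of 0.030 and a log2 fold change of -0.68, and 2 of the 3 probe sets of Epha3 were higher with adjusted p of 0.0052 and 0.011 and log2 fold changes of 0.83 and 0.72, all under a fold of 2.

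Slit2, the secreted ligand of Robo1 and Robo2, fell at 2 of its 3 probe sets. At 1382685_at, the brightest, it had 460, 507 and 518 in Colony arrays, against 1220, 1365 and 1230 in A16 arrays (log2 fold change -1.33, SE 0.13, limma adjusted p = 0.00075). At 1395986_at it had 221, 279 and 280 in Colony arrays, against 1070, 1053 and 1162 in A16 arrays (log2 fold change -2.07, SE 0.14, limma adjusted p = 0.00015). The groups were wide apart at both. The third probe set, 1369346_at, read 22.0 to 25.3 in Colony arrays and 23.2 to 23.9 in A16 arrays, a dim level with a log2 fold change of 0.028. Slit1 (0.061) and Slit3 (-0.14) did not pass.

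None of the 3 Robo genes was called, and Robo1 and Robo2 had opposite signs. Robo1 had 88.1, 106 and 91.2 in Colony arrays, against 139, 124 and 176 in A16 arrays (log2 fold change -0.70, SE 0.17, limma adjusted p = 0.028). Robo2 had 76.6, 85.1 and 84.2 in Colony arrays, against 50.8, 47.6 and 38.3 in A16 arrays (log2 fold change 0.93, SE 0.16, limma adjusted p = 0.0073). In both genes the groups were apart and the fold was under 2. A second probe set of Robo2 gave 0.93 and the third 0.071, and without A16 replicate 1 the brightest gave 1.10 and passed the fold threshold too.

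Netrins had no call in 2 genes. Ntn1, the prototype of the family, had 44.5, 44.2 and 59.2 in Colony arrays, against 35.4, 39.7 and 39.0 in A16 arrays. The groups were apart by little, and the log2 fold change of 0.42 (SE 0.17) did not pass (limma adjusted p = 0.13). Its other probe sets gave 0.14 and -0.18, and Ntn5 gave 0.011.

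Of the Unc5 receptors, which pass on repulsion by netrin and can start apoptosis when unbound, 1 of 3 genes fell, against 4.75% over all genes. Unc5c had 81.5, 94.3 and 65.2 in Colony arrays, against 278, 303 and 264 in A16 arrays at 1382201_at (log2 fold change -1.87, SE 0.17, limma adjusted p = 0.00063). At 1384506_at it had 22.2, 19.3 and 22.6 in Colony arrays, against 112, 103 and 88.4 in A16 arrays (log2 fold change -2.17, SE 0.15, limma adjusted p = 0.00018). Both probe sets had groups that did not overlap. At 1384506_at the Colony level was dim, at percentile 4.87 of all probe sets in Colony arrays, near the floor of the signal. Unc5a had a log2 fold change of -0.020.

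Unc5b was close to the threshold. At its brightest probe set, 1393799_at, it had 231, 215 and 285 in Colony arrays, against 479, 460 and 540 in A16 arrays, with groups apart and a log2 fold change of -0.998 (SE 0.17, limma adjusted p = 0.0066). At 1369235_at it had 124, 108 and 97.7 in Colony arrays, against 185, 200 and 336 in A16 arrays, and was called lower with a log2 fold change of -1.26 (SE 0.26, limma adjusted p = 0.015). This call was lost without A16 replicate 2, whose array held the value of 336 (log2 fold change -0.86), and without Colony replicate 2 (-1.14, adjusted p = 0.063). The brightest probe set was called lower in 10 of 18 alternatives, among them PLIER as log2(value + 16) (-1.32, adjusted p = 0.0037), without A16 replicate 1 (-1.10) and without Colony replicate 2 (-1.18).

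Ligands and receptors were then set side by side. Of 27 ligand genes 2 rose (7.41%), 3 fell (11.1%) and 22 did not pass, with a median log2 fold change of 0.023. Of 28 receptor genes 2 rose (7.14%), 3 fell (10.7%) and 23 did not pass, with a median of -0.059, against 0.054 over all genes. The shares called over all genes were 4.36% higher and 4.75% lower. Both classes lay above these shares in each direction, on counts of 2 or 3 genes. By probe set, 2 of 45 ligand probe sets rose (4.44%) and 4 fell (8.89%). Of 49 receptor probe sets 2 rose (4.08%) and 9 fell (18.4%), against 4.0% and 5.81% of all probe sets. A gene can count more than once in these. With no fold threshold 3 ligand and 7 receptor genes were lower, and 3 of each were higher. Whether ligands and receptors differ was not tested. The called ligand rises were both in membrane bound semaphorins (Sema4b, Sema6a), close to the fold threshold, and the called falls all in secreted proteins (Sema3d, Sema3e, Slit2). Under a fold of 2 there were other signs. The secreted Sema3c was higher (0.89, limma adjusted p = 0.0045), and the membrane bound Sema4a had -0.63 and did not pass. Whether secreted and membrane bound ligands differ was not tested. For some pairs known to bind, all at the brightest probe sets, the values were -3.11 for Sema3e and -0.61 for Plxnd1. They were -1.33 for Slit2, -0.70 for Robo1 and 0.93 for Robo2. Sema6a had 1.15, with -0.63 for Plxna2 and 0.25 for Plxna4. Ntn1 had 0.42, with -1.87 for Unc5c, -0.998 for Unc5b, 0.22 for Dcc and 0.35 for Neo1 (neogenin). Sema3a had 0.44 and Nrp1 -2.01, and Sema3f had -0.89 and Nrp2 1.45. Sema4d had 0.056 and Plxnb1 -0.32, and Efna1 had 0.032 and Epha2 -0.57. Other pairs bind as well, and these were not fixed beforehand.

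RMA and PLIER summarise the same arrays, so their likeness is no second measurement. The log2 fold change had the same sign in 84 of 96 member probe sets. In PLIER 16 were called, and 13 were called in both summaries in the same direction. The probe sets farthest apart were 1 of Sema6a (1378005_at, 0.65 in RMA and 1.87 in PLIER), 1 of Efna5 (1369594_at, -1.26 and -0.22) and Ephb1 (-0.0089 and -0.95). The calls of RMA that PLIER did not make were Epha7 (0.64), Sema6a at 1382868_at (0.99), Unc5b at 1369235_at (-0.82) and the lower probe set of Nrp2. PLIER in turn called Sema6a at 1378005_at (1.87), Epha5 (-1.0002) and Unc5b at 1393799_at (-1.32), which RMA did not.

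**Figure D4:**
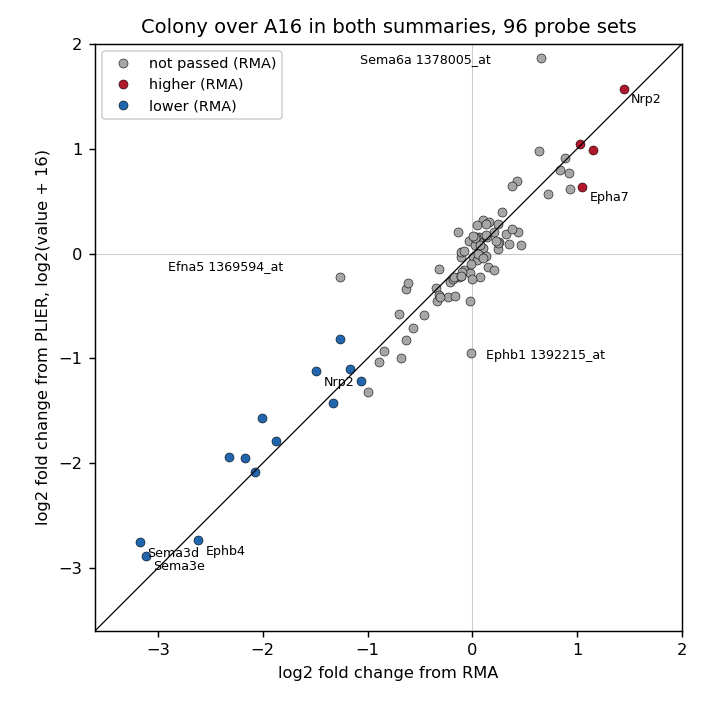
Log2 fold change of Colony over A16 from RMA (x axis) and from PLIER as log2(value + 16) (y axis) for the 96 guidance probe sets, coloured by the RMA call, with a line of equal values. Most points follow the line, and the 3 named with a probe set number lie farthest from it, among them Sema6a 1378005_at at 0.65 and 1.87.

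Other genes of these pathways were read from a list of 56 co-receptors, ligands, adaptors and cytoskeletal regulators. Of 52 measured 3 rose, 7 fell and 42 did not pass, against 4.36% higher and 4.75% lower over all genes, and the median log2 fold change was -0.055. The 3 that rose were Fyn (2.06), a Src family kinase that acts downstream of plexins and Eph receptors, Tiam1 (1.24), an exchange factor for Rac, and Nck2 (1.15), an adaptor of phosphorylated receptors, with limma adjusted p of 0.00017, 0.0013 and 0.0012. Flrt2, an adhesion protein that binds Unc5 receptors, fell the most, with 95.4, 90.9 and 80.0 in Colony arrays, against 1031, 1224 and 956 in A16 arrays (log2 fold change -3.59, SE 0.15, limma adjusted p = 2.9e-05). Its groups were wide apart. Cntn2 (-2.07), a contactin of axons, Pak1 (-1.89), a kinase effector of Rac, and Rnd3 (-1.71), a regulator of actin stress fibres, also fell, with adjusted p of 0.00020, 0.00017 and 0.0012. Dcc, the attractive netrin receptor, had a log2 fold change of 0.22 and Neo1, which codes for neogenin, one of 0.35, and neither passed.

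Array to array spread and cell type markers were the same background for all these results. The SD of log2 differences between arrays was 0.17 to 0.30 within A16, 0.22 to 0.33 within Colony and 0.67 to 0.76 between the groups. Of 12 fibroblast markers none was called higher and 4 were called lower in Colony cells (Col1a1, Col5a1, Col3a1 and Thy1), with a summed RMA intensity of 57122 to 62014 in Colony arrays and 77941 to 90008 in A16 arrays. Under a fold of 2, Pdgfra was higher (log2 fold change 0.55, limma adjusted p = 0.023). Col1a2 (-0.61, adjusted p = 0.014) and Lum (-0.78, adjusted p = 0.0066) were lower, also under a fold of 2. Dcn, Lum and Fap were dim in both groups, the highest value among them being 50.6. No marker of endothelium (5 measured), neurons (6) or Schwann and glial cells (4) was called. In Colony arrays their summed intensities were 189 to 227, 216 to 224 and 234 to 246. In A16 arrays they were 164 to 177, 174 to 198 and 223 to 265. Emcn, an endothelial marker, was higher under a fold of 2 (log2 fold change 0.55, limma adjusted p = 0.029). It was dim, with 33.4 to 38.7 in Colony arrays and 24.1 to 25.1 in A16 arrays. Krt8 was called higher among 5 epithelial markers (log2 fold change 2.13) with Epcam at 21.9 to 22.9 in Colony arrays and 22.6 to 26.4 in A16 arrays, and the summed intensity of the 5 was 3023 to 3790 in Colony arrays and 779 to 905 in A16 arrays. Cdh1, also epithelial, was higher under a fold of 2 (log2 fold change 0.74, limma adjusted p = 0.0098). Csf1r was called higher among 6 leukocyte markers (4.01), with Ptprc at 36.8 to 42.2 in Colony arrays and 34.7 to 38.4 in A16 arrays. Cd14 went the other way, with 534 to 697 in Colony arrays and 891 to 1020 in A16 arrays. Its log2 fold change was -0.56 (limma adjusted p = 0.037), under a fold of 2. The summed intensity of the 6 was 1483 to 1597 in Colony arrays and 1136 to 1293 in A16 arrays. The part of Krt8, Csf1r and the collagens in the results above was not tested.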

How the data were processed

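RNA of Colony and A16 cells was measured by the authors on 6 arrays. They read the images with GeneChip Operating Software, summarised probe sets with RMA and PLIER in Avadis (versions of RMA, PLIER and Avadis not given in the sources used here), and deposited both as linear intensity. Here log2 of RMA intensity was taken. The technical array of each group, whose labels carry no biological number, was averaged with biological replicate 1, so that n = 2 cultures per group. The limma p-values rest on the spread between these cultures, moderated by a prior spread taken over all probe sets. This prior has more weight than the cultures of a single probe set. Control probe sets (57 of 31099) were left out, and 31042 were fitted with limma 3.58.1 (lmFit, eBayes; 4.76 prior degrees of freedom) under R 4.3.3, with Benjamini-Hochberg adjustment over all of them and no filter on dim values. Where no tool is given beside an adjusted p, limma was used. The script was tested on simulated data. Figures were drawn with Python 3.11.15.

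In the platform annotation 20826 probe sets (67.1%) carry a single symbol, 436 carry several and 9780 carry none, and only a single symbol was used as a name. Symbols of members needed no update. For each gene the brightest probe set, by mean log2 RMA over the arrays, was used. Gene order and promoters came from RefSeq on GRCr8, and positions of probe sets were not used.

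Named were every member with a call, members whose probe sets disagree, up to 3 others per family, brightest first, and up to 4 called partner genes each way. Sema3a, Sema3g, Slit3, Plxnd1, Epha3, Epha5, Ephb1, Dcc, Neo1 and second probe sets without a call were chosen after their values were seen. Members and lists were chosen with earlier results of these data known. Scan dates and slides were not in the sources used here, so no batch was tested. Alternatives were PLIER as log2(value + 16) or log2(value), other handling of the technical arrays, a replicate block, a filter on dim values, another scaling, the mean of all probe sets, no fold threshold, the methods' t-test and leaving out each replicate.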

Additional observations from a re-analysis of the deposited data

How the results depend on the processing

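The falls of Sema3d, Sema3e, Ephb4, Nrp1, Slit2 and Unc5c kept their direction and call under every alternative that tested them (the filter on dim values leaves out Sema3d, Nrp1 1373577_at and Unc5c 1384506_at) except the methods' t-test after adjustment, which on 2 cultures per group called 0 probe sets of all and hence 0 members and 0 partners in either direction. Unadjusted, it called 2383 probe sets, with 3 members higher and 11 lower (limma unadjusted: 4 and 14). Guidance probe sets called lower came to 7 with dim probe sets left out, a filter that removes 64 members. With no fold threshold there were 7056 calls over all probe sets, 11 guidance probe sets higher, 10 guidance genes and 7 receptor genes lower, and 6 partners higher and 12 lower. With PLIER as log2(value + 16), 2 guidance genes, 1 ligand and 1 receptor were higher and 5 receptors lower, and the medians were 0.080 for ligands and -0.24 for receptors. PLIER as log2(value), chosen after seeing the data, gave 1 receptor higher and 6 lower, 5 partners higher and medians of 0.086 and -0.32. With the mean of all probe sets of a gene, 1 guidance gene, 1 ligand, 0 receptors and 1 partner were higher, and Nrp2 turned to -0.020. The receptors called higher were 1 with the arrays as separate samples, with the technical arrays averaged with biological replicate 2, with dim probe sets left out (median of receptors then -0.59), and with separate arrays less the Colony array with conflicting labels (chosen after seeing the data).

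Leaving out each replicate gave 0 to 2 ligands higher, 1 to 3 receptors higher, 5 to 11 partners lower, and medians of -0.042 to 0.034 for ligands and -0.16 to -0.014 for receptors. A group then has 1 culture, assumed to vary like the other. Uncalled values near 0 changed sign. Without single replicates they ran from -0.027 to 0.15 for Slit1, from -0.42 to 0.16 for Sema3b, from -0.11 to 0.17 for Efna1, from -0.10 to 0.15 for Efna4, from -0.12 to 0.14 for Ntn5, from -0.14 to 0.10 for Unc5a and from -0.14 to 0.28 for Sema6c. Separate arrays gave 0.018 for Sema3b and -0.056 for Efna1. With the technical arrays averaged with biological replicate 2 the values were 0.11 for Sema3b, -0.11 for Efna1 and 0.037 for Unc5a, and with them left out -0.029 for Ntn5 and 0.064 for Unc5a. Separate arrays less the Colony array with conflicting labels gave -0.030 for Slit1, 0.12 for Sema3b, -0.15 for Efna1 and 0.071 for Unc5a. Efna1 was -0.014 with the culture as a random block and -0.41 as the mean of its probe sets. In the PLIER settings Ntn5 was -0.034 and -0.049, and Sema6b was -0.025 and -0.028.

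Replicate numbers did not pair the samples (correlation of deviations -0.15). With the replicate block 3121 probe sets were called, with 4 guidance probe sets higher and 14 lower, and with the numbers crossed, a pairing chosen after seeing the data, 3135, 4 and 14. Precision is limited by the few arrays, and for dim members by the floor of the signal.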
